A study of Mus musculus with 17 samples.

Results

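The Hox genes of adult mouse back skin described here are Hoxa5, Hoxa7, Hoxb2, Hoxc4, Hoxc5, Hoxc6 and Hoxc8, chosen by symbol, and each had 1 row among the 8446 rows of the expression table. Of the 39 mouse Hox genes these 7 have a row, and the other 32 are not analysed here. RNA was measured in 17 single cells, all of 1 group: cells carrying the Tomato reporter, taken from back skin of C57BL/6 adults of the genotype Prrx1-CreERT;Tomato that had been given tamoxifen at 2 mg per 30 g once a day for 3 days. CreERT is a recombinase that works only when tamoxifen is present. Here it is driven by Prrx1, a gene of limb and dermal mesenchyme, and it switches on the red Tomato reporter for good, so a red cell need not still express Prrx1. The red cells were sorted and then picked one at a time, no animal is named for any cell, and there is no untreated or Tomato-negative group. The cells were therefore read together as 1 sample: counts, means and SDs over cells are descriptions, and no test between conditions was possible.

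Hox genes encode transcription factors that bind DNA through a homeodomain and give cells a position along the head to tail axis. They lie in clusters, and the order of the genes along a cluster follows the order in which they act along the body, with low-numbered genes acting towards the head and high-numbered genes towards the tail. Cultured dermal fibroblasts are known to keep a Hox pattern that depends on the body site they came from. Genes of the same number in different clusters are called paralogs and descend from a common ancestral gene.

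The stretch that defines the family is the homeobox, the 180 bases that encode the 60 residues of the homeodomain. It is shown for the pair detected most in the HoxC cluster, Hoxc6 (chr15:103010754-103010933, plus strand) and Hoxc8 (chr15:102992571-102992750, plus strand), and for Hoxa5 (chr6:52202632-52202811, minus strand), which reached nearly as high a value as Hoxc6 in a single cell. The sequences are coding-strand sequences from GENCODE M21 transcripts on GRCm38, 5′ to 3′. Capitals mark the 18 bases of codons 48 to 53 of the homeobox, the core of the helix that reads DNA.
Hoxc6: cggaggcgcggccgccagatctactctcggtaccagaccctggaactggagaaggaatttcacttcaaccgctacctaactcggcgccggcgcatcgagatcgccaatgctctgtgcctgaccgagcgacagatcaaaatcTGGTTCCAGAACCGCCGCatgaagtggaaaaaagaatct
Hoxc8: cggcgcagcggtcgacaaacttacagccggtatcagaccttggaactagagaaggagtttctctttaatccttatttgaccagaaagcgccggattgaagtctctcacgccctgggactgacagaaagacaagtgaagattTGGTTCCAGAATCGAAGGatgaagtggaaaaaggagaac
Hoxa5: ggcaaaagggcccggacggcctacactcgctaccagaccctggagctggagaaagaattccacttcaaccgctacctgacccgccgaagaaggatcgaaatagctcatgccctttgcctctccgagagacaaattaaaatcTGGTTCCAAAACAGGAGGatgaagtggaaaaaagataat
Hoxa5 and Hoxc6, which lie in different clusters, shared 136 of the 180 homeobox bases. Hoxc6 and Hoxc8 shared 122, and Hoxa5 and Hoxc8 shared 118. The longest run of bases shared by the whole transcripts from which the homeoboxes were taken was 17 for Hoxa5 with Hoxc6 and for Hoxa5 with Hoxc8, and 14 for Hoxc6 with Hoxc8. Neither the read length nor the way reads were assigned to genes is given in the sources used here.

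Values are deposited on a log scale and are read here as log2 of FPKM plus 1, where FPKM is fragments per kilobase of transcript, scaled to the size of the library. The sorted values are nearly the same in every cell, so a value gives a gene's place among the rows of that cell. A gene was called detected at FPKM 1 or more, a deposited value of 1, which 4369 of 8446 rows reached in every cell (51.7%). A stricter level, FPKM 10 or more, is a deposited value of 3.46 and was reached by 2970 rows in every cell. Read counts are unknown, so no detection limit can be given. The number of rows at the lowest value, 871 to 1766 per cell, was the remaining measure of how complete a library was. Over the 224 rows under 2.5 in every cell, sets of cells had more similar low values by the median. The median Spearman correlation between cells was 0.32 within cells 1 to 5, 0.26 within cells 6 to 14 and 0.30 within cells 15 to 17, against 0.10 between sets. The ranges overlapped: the lowest correlation within a set was 0.12, in cells 6 to 14, and the highest between sets was 0.28. These sets are not groups of the study.

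All 17 cells carried fibroblast transcripts, and most also had some markers listed for other cell types. The fibroblast list had 13 of its 14 genes in the table, and 11 to 13 of them were detected per cell. Their summed level ran from 84.1 to 117 per cell. Of the markers of other types, 2 of 8 keratinocyte markers, 1 of 7 immune markers, 3 of 7 endothelial markers, 6 of 9 pericyte and smooth muscle markers, 3 of 6 adipocyte markers and 3 of 8 melanocyte and Schwann cell markers were measured, and none of 5 skeletal muscle markers. Fabp4, a fatty acid carrier on the adipocyte list, and Mbp, a myelin protein on the Schwann cell list, were each detected in 12 cells, at FPKM 10 or more in 10 and 2 of them. At FPKM 1 or more the pericyte and smooth muscle markers went with cells 1 to 5. These had 4 or 5 of 6 detected each, against 0 to 2 in every other cell. At FPKM 10 or more no cell had more than 1 of these markers. Their summed level was highest in cells 4 (11.4), 5 (10.8) and 2 (8.47). In cells 1 (5.48) and 3 (6.30) it was below that in cells 14 (6.84) and 16 (6.87). The lists differ in length, so their sums are not compared with one another. The summed level per cell was at most 5.63 for keratinocyte, 4.69 for immune and 7.57 for endothelial markers. It was at most 11.4 for pericyte and smooth muscle markers, 22.1 for adipocyte markers and 13.6 for melanocyte and Schwann cell markers, and these last 2 maxima were both in cell 16. The defining markers Ptprc, Pecam1 and Krt14 have no row under these symbols and were not analysed here.

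At least 1 of the 7 Hox genes was detected in 15 of 17 cells (88.2%, exact Clopper-Pearson 95% interval 63.6% to 98.5%, counting error over cells only). Detection was sparse within a cell: the median was 2 of 7 genes, 10 cells had 2, 3 cells had 1, and only cells 9 and 15 had 3. Of the 119 values of 7 genes in 17 cells, 29 (24.4%) were at FPKM 1 or more, against 51.7% for all rows. At FPKM 10 or more there were 16 such values, in 12 cells. Of the rest, 46 were at the cell's lowest value and 44 between it and FPKM 1.

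**Figure D1:**
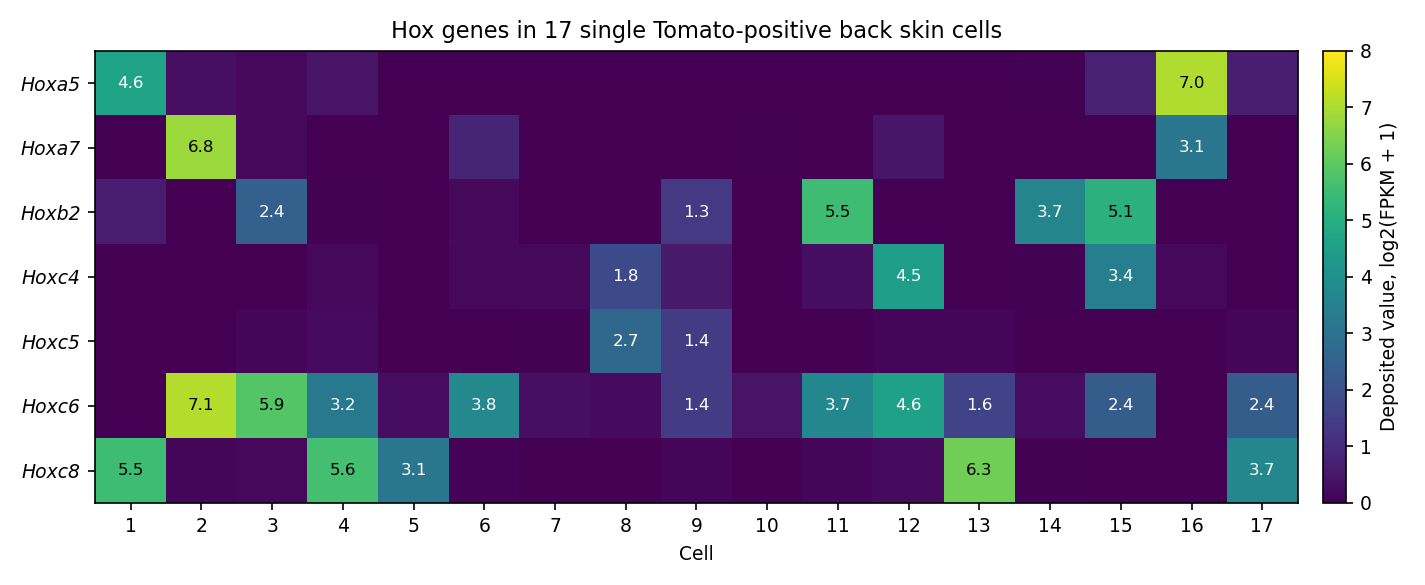
Deposited value, log2(FPKM + 1), of each Hox gene (rows) in each of the 17 cells (columns), with the number printed where it is 1 or more. Hoxc6 has 10 printed values, Hoxc8 and Hoxb2 have 5 each, and cells 7 and 10 have none.

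A HoxC gene was detected in 13 cells, the HoxB gene Hoxb2 in 5 and a HoxA gene in 3. These counts come from 4, 1 and 2 measured genes, so they do not rank the clusters. Within every cell 51.7% of all rows were detected. The share of cells for other sets of 4 rows was not computed, so 13 cells is not read as high. In 7 cells HoxC genes alone were detected, in 6 cells a HoxC gene and a HoxA or HoxB gene, and in cells 14 and 16 only HoxA or HoxB genes.

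Hoxc6, a gene of thoracic identity, was the most widely detected, in 10 of 17 cells (58.8%, exact 95% interval 32.9% to 81.6%), where 41.9% of all rows were detected in 10 or more cells. The gene (ENSMUSG00000001661) lies on the plus strand of chromosome 15 from 102998257 to 103011881 in GRCm38. Its lowest value was 0, its median 1.62 and its highest 7.08, with a mean of 2.21 (SD 2.20, n = 17 cells). Hoxc6 stood at 7.08 in cell 2, 5.85 in cell 3, 4.58 in cell 12, 3.75 in cell 6, 3.74 in cell 11 and 3.25 in cell 4. It stood at 2.37 in cells 15 and 17, 1.62 in cell 13 and 1.40 in cell 9, and was under 0.5 in the other 7 cells. In cell 2 it was the 860th highest of 8446 rows. The equal values of cells 15 and 17 are the same place, 3525, in both cells, which is how the deposited scale behaves. At FPKM 10 or more Hoxc6 was found in 5 cells.

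Hoxc8, a regulator of thoracic vertebral identity and of motor neurons to the forelimb in the mouse, was detected in 5 cells (29.4%, exact 95% interval 10.3% to 56.0%), where 34.6% of all rows were detected in at most 5. The gene (ENSMUSG00000001657) spans 102990607 to 102994111 on the same strand, ending 4.14 kb before Hoxc6 begins. Its lowest value was 0, its median 0.14 and its highest 6.28, with a mean of 1.48 (SD 2.34, n = 17 cells). Hoxc8 was at 6.28 in cell 13, 5.61 in cell 4, 5.51 in cell 1, 3.69 in cell 17 and 3.15 in cell 5. No value lay between 0.24 and 3.15, so the cells with and without Hoxc8 were separated by a wide gap, unlike those of Hoxc6. Of the 5 cells, 3 (cells 1, 4 and 5) were among cells 1 to 5, 1 of the sets with similar low values. With cells 1 to 5 left out the mean of Hoxc8 was 0.88 (12 cells). Cells 1 to 5 also had 4 or 5 of 6 pericyte and smooth muscle markers detected at FPKM 1 or more. The other 12 cells, where Hoxc8 was found in cells 13 and 17, had 0 to 2. At FPKM 10 or more no cell had more than 1 of these markers. The part of these markers and of what those libraries share was not tested.

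Hoxc6 and Hoxc8 were detected together in 3 cells and at least 1 of them in 12. In cell 4 Hoxc6 was at 3.25 and Hoxc8 at 5.61, in cell 13 at 1.62 and 6.28, and in cell 17 at 2.37 and 3.69. Hoxc8 was the higher of the pair in each of these 3 cells. In the cells with the highest Hoxc6 values, cells 2, 3 and 12, Hoxc8 was at 0.16, 0.17 and 0.24. In cell 1, where Hoxc8 was at 5.51, Hoxc6 was at the lowest value. No cell had both genes at FPKM 10 or more, a level that Hoxc6 reached in 5 cells and Hoxc8 in 4. Most other pairs of the 7 Hox genes also shared no cell at that level, so this is not read as exclusion. Over the 17 cells the Pearson correlation was -0.16 and the Spearman correlation 0.25, so the sign depends on how the many low values are weighted. These cells share an unknown number of animals and have unknown depth.

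**Figure D2:**
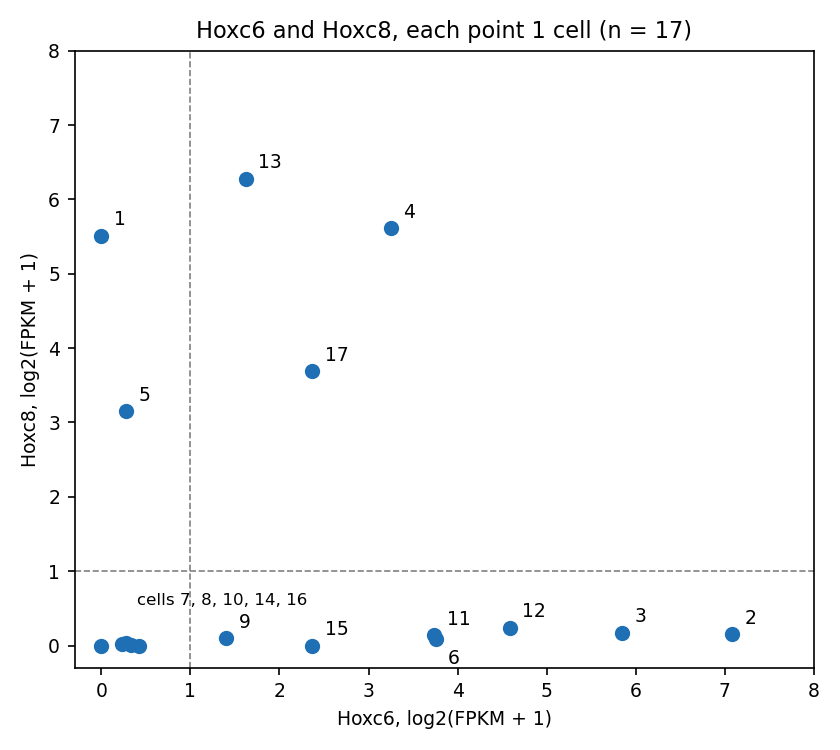
Hoxc8 value (vertical axis) against Hoxc6 value (horizontal axis), both log2(FPKM + 1), 1 point per cell (n = 17) with cell numbers, and dashed lines at FPKM 1. Cells 4, 13 and 17 lie above both lines, cells 1 and 5 above the Hoxc8 line alone, and 7 cells beyond the Hoxc6 line alone.

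The remaining HoxC genes were seen less often, in 2 or 3 cells each, where 14.4% of all rows were detected in 2 or 3. Hoxc4 (ENSMUSG00000075394, chromosome 15, 103018934 to 103036852), a gene of the cervical and upper thoracic region, was detected in 3 cells, at 4.50 in cell 12, 3.44 in cell 15 and 1.79 in cell 8. Its mean was 0.67 (SD 1.33). Hoxc5 (ENSMUSG00000022485, 102967443 to 103017429) had the lowest mean, 0.29 (SD 0.70), below that of 97.3% of all rows. It was detected at 2.70 in cell 8 and 1.40 in cell 9 and in no cell at FPKM 10. The annotated Hoxc5 gene spans 50.0 kb and contains the whole of Hoxc6 and Hoxc8 between its exons, but it shares no exonic base with either. It shares 166 exonic bases with Hoxc10, which has no row.

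Hoxb2, which acts in the mouse hindbrain and is needed there for facial motor neurons, was detected as often as Hoxc8, in 5 cells. Of all rows 34.6% were detected in at most 5 cells. The Hoxb2 gene (ENSMUSG00000075588) lies on the plus strand of chromosome 11 from 96350525 to 96354012. Its lowest value was 0, its median 0.01 and its highest 5.52, with a mean of 1.12 (SD 1.89, n = 17 cells). It stood at 5.52 in cell 11, 5.15 in cell 15, 3.65 in cell 14, 2.44 in cell 3 and 1.33 in cell 9. Hoxb2 and Hoxc8, each in 5 cells, shared no cell. Hoxb2 and Hoxc6, which was in 10 cells, were found together in cells 3, 9, 11 and 15. Only 5 of the 14 pairs of Hox genes from different clusters shared a cell. The share over pairs of all rows was not computed, so no pattern is read from these overlaps. The antisense gene Hoxb3os overlaps 953 exonic bases of Hoxb2 on the opposite strand and has a row of its own. Hoxb3os was detected only in cell 2, at 5.35, where Hoxb2 was at the lowest value, and it was at most 0.65 in the cells with Hoxb2. The sources used here do not say whether counting used strand.

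The HoxA genes were each detected in 2 cells (11.8%, exact 95% interval 1.46% to 36.4%), at values from 3.14 to 7.03. Of all rows 14.4% were detected in 2 or 3 cells. Hoxa5 (ENSMUSG00000038253, chromosome 6, 52201754 to 52204587, minus strand), needed in the mouse for lung and neck skeleton development, was at 7.03 in cell 16 and 4.63 in cell 1 and at most 0.72 elsewhere. In cell 16 it was the 884th highest of 8446 rows. Hoxa7 (ENSMUSG00000038236, 52214491 to 52221854), which acts in the thoracic region, was at 6.79 in cell 2 and 3.14 in cell 16 and at most 0.83 elsewhere. Cell 16 was the only cell with both. The antisense gene Hoxaas3, which shares 586 exonic bases with Hoxa7, has no row. Cell 16 also had all 3 measured adipocyte markers at FPKM 10 or more and all 3 measured melanocyte and Schwann cell markers detected, and their part in these values was not tested. Without cell 16 the means were 0.44 for Hoxa5 and 0.52 for Hoxa7 (16 cells), against 0.82 and 0.67 with it. The mean of Hoxa7 was 0.29 without cell 2. That of Hoxc4 was 0.43 without cell 12, against 0.67 with it, and that of Hoxc5 0.14 without cell 8, against 0.29. Without the cell highest in each, the means of Hoxc6, Hoxc8 and Hoxb2 were 1.90, 1.18 and 0.84, against 2.21, 1.48 and 1.12.

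**Figure D3:**
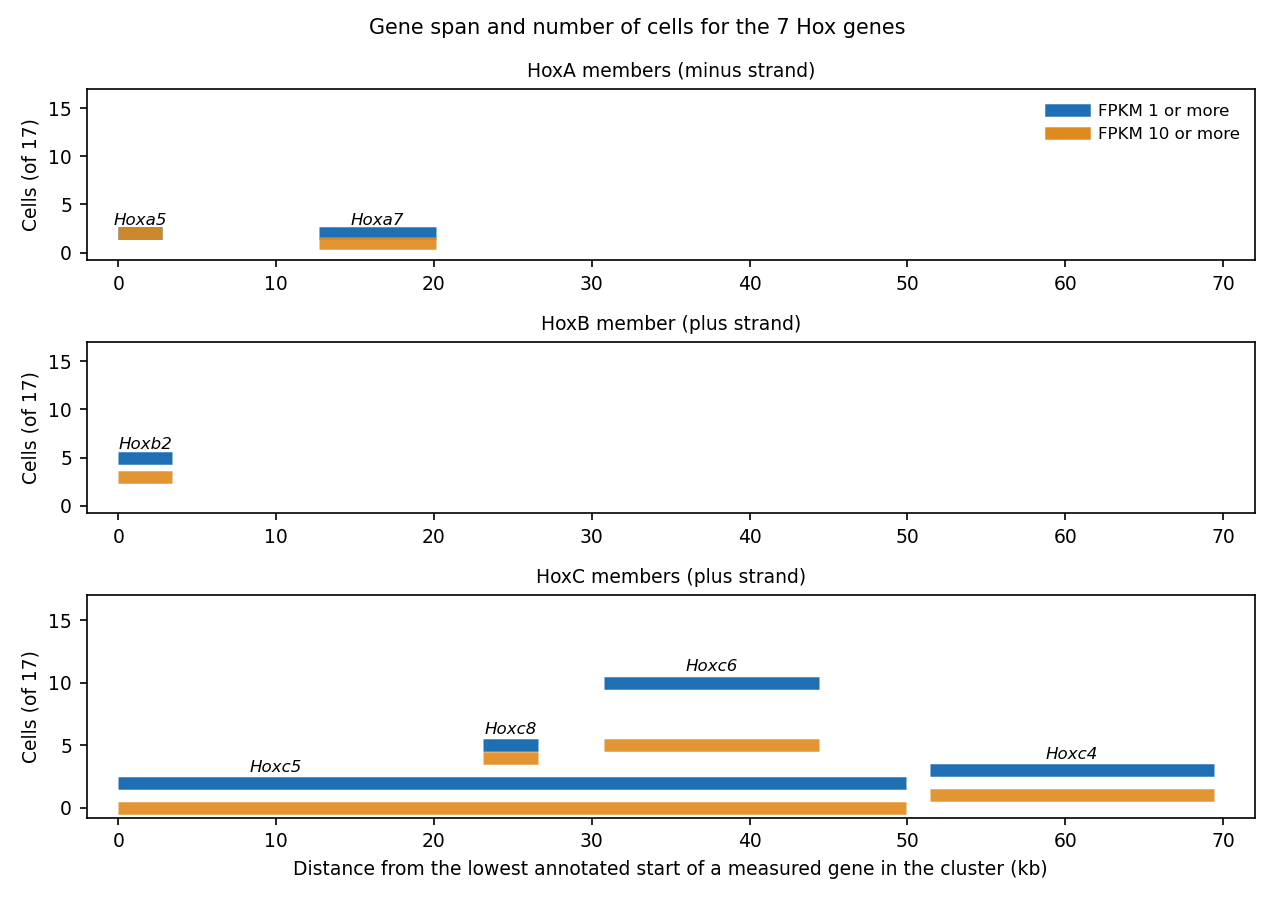
Number of cells of 17 (vertical axis) with each Hox gene at FPKM 1 or more (blue) and at FPKM 10 or more (orange), drawn over the annotated span of the gene in kb from the first measured gene of its cluster (horizontal axis). Hoxa5 has 2 cells at both levels, so its bars coincide, and in the HoxC cluster Hoxc6 lies highest at 10 and 5 cells.

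The order of the mean levels was Hoxc6, Hoxc8, Hoxb2, Hoxa5, Hoxa7, Hoxc4 and Hoxc5, on the log2(FPKM + 1) scale, which is per length. No 2 neighbours in this order differed beyond their spread over cells. Hoxc6 exceeded Hoxc8 by a mean of 0.73 with an SD of the difference of 3.46, and was the higher in 11 cells and the lower in 5. Hoxa7 exceeded Hoxc4 by 0.01 (SD 2.33), and Hoxc4 exceeded Hoxc5 by 0.38 (SD 1.37). Libraries of this kind read the 3′ end of a transcript, so dividing by length may not suit them. With values multiplied by exonic length Hoxc6 stayed highest at 2.98 and Hoxc5 lowest at 0.54, and Hoxc4 moved above Hoxa7. With cells 1 to 5 left out Hoxc6 was still highest, at 1.76, but Hoxb2 (1.32) and Hoxc4 (0.93) stood above Hoxc8.

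Which Hox genes were detected differed from cell to cell. The 15 cells with a detected gene held 12 different combinations, of which 10 were seen in 1 cell each. Calls were sparse, depth is unknown and combinations of other rows were not counted. The combinations are therefore not read as differences in the Hox genes that cells express. Hoxc6 with Hoxc8 recurred in 3 cells and Hoxb2 with Hoxc6 in cells 3 and 11. Of 7 pairs within a cluster 5 shared at least 1 cell, and of 14 pairs across clusters 5 did. Every within-cluster pair with Hoxc6, detected in 10 cells, shared a cell. The share over pairs of all rows was not computed, so these counts do not compare sharing within and across clusters. The paralogs Hoxa5 and Hoxc5, each detected in 2 cells, shared no cell. Pearson correlations over the 17 cells ran from -0.29 to 0.27 within clusters and from -0.34 to 0.47 across them; the medians were -0.16 and -0.15. The highest value, for Hoxa7 and Hoxc6, came with a single shared cell, cell 2.

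Cells 7 and 10, in which no Hox gene was detected, had summed fibroblast marker levels at the lower end of the range over cells. Their sums were 90.3 and 90.4, among the 3 lowest of 84.1 to 117. The lowest sum, 84.1, was in cell 15, which had 3 Hox genes detected. Single markers went both ways. Cell 7 had the lowest Col1a2 (9.04) and Col1a1 (6.38) of all cells. Its Lum (11.22), Serpinf1 (11.13) and Bgn (8.27) were above their medians over cells, 9.74, 10.37 and 8.14. Col3a1, a fibrillar collagen of dermis, was at 9.64 in cell 7 and 11.05 in cell 10, and Pdgfra, a receptor for platelet-derived growth factor carried by fibroblasts, was at 5.78 and 5.25. They had 11 and 12 of the 13 fibroblast markers. The part of these levels in the missing Hox calls was not tested. Cell 7 had the lowest Prrx1 value of all cells, 2.63, and cell 10 was at 4.41. Their rows at the lowest value numbered 1138 and 880. Hoxc6 was the highest Hox gene in each, at 0.33 and 0.42. Across the 17 cells the number of Hox genes detected and the number of rows at the lowest value had a Pearson correlation of 0.37 (Spearman 0.41), a weak relation over sparse calls. Cells 15 to 17, with a mean of 1553 rows at the lowest value, had a mean of 2.33 Hox genes, cells 6 to 14 (1093 rows) had 1.44, and cells 1 to 5 (1341 rows) had 1.80. The part of library completeness in these counts was not tested.

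Genes from lists related to the Hox genes were less widely detected than the rows of the table at large. Of 114 genes in 7 related lists, 63 were measured and 22 (34.9%) were detected in at least 9 cells, against 46.9% of all rows. Their median was 6 of 17 cells, against 3 for the Hox genes and 8 over all rows. The 5 lists of genes known to work with or act on Hox genes, the Hox cofactors, Polycomb, Trithorax and demethylase, retinoic acid and axial input genes, had 40 measured genes with a median of 6 cells, of which 11 (27.5%) were detected in at least 9. The cluster noncoding RNAs and the axial inputs were about as sparse as the Hox genes, with medians of 1.5 and 3.5 cells. At FPKM 10 or more 11 of the 63 were found in at least 9 cells, against 26.6% of all rows.

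Pbx and Meis proteins bind DNA together with Hox proteins and sharpen their choice of site. Of 9 such genes 5 were measured, with a median of 7 cells. Pbx2 and Meis2 were detected in 7 cells each, and Meis3 in 3. Meis2 was highest in cell 1 at 5.71 and next in cell 16 at 5.05.

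Polycomb proteins keep Hox genes silent outside their domain, and Trithorax proteins keep them active within it. Of 21 Polycomb genes 14 were measured, with a median of 5.5 cells, and 5 were detected in at least 9 cells. Rbbp7 (16 cells, mean 6.27) and Rbbp4 (14 cells, mean 4.44), histone-binding proteins that also belong to other complexes, led the list. Rnf2, the ubiquitin ligase of Polycomb complex PRC1, was detected in 12 cells, and Eed, which binds the repressive mark for the methylating complex, in 11. Of 9 Trithorax and demethylase genes 8 were measured, with a median of 7.5 cells. Dpy30 (16 cells, mean 5.20) and Ash2l (9 cells) are shared subunits of the activating methyltransferases, and Kdm6b (15 cells, mean 3.44) removes the repressive Polycomb mark. Kmt2a, the methyltransferase known for maintaining Hox expression, was detected in 8 cells, at no more than 3.03.

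Retinoic acid induces low-numbered Hox genes in the embryo. Of 18 retinoic acid genes 11 were measured, with a median of 6 cells, and 2 were detected in at least 9 cells. Aldh1a1, which makes retinoic acid, was detected in 17 cells with a mean of 5.87 (SD 1.67), and Cyp26b1, which breaks it down, in 10 with a mean of 2.26 (SD 2.19). The receptor Rarg was detected in 7 cells. Egr2, which activates Hoxb2 in the mouse hindbrain, was detected in 4 cells. It belongs to a list of 6 axial inputs, of which 2 were measured. Of 12 noncoding RNAs of the clusters Hotairm1 and Hoxb3os were measured. Hotairm1, at the low-numbered end of the HoxA cluster, was detected in cell 1 at 3.85, where Hoxa5 was at 4.63, and in cell 7 at 2.47, where no Hox gene was detected.

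Other patterning factors of mesenchyme were detected about as widely as rows in general. Of 39 such genes 21 were measured, with a median of 9 cells against 8 over all rows, and 11 (52.4%) were detected in at least 9 cells, against 46.9% of all rows. Prrx1 (17 cells, mean 5.41), Osr2 (15 cells, mean 4.72), Tshz2 (15 cells, mean 3.59) and Twist1 (14 cells, mean 4.00) led the list. En1, a homeobox gene that marks a dermal fibroblast lineage of the mouse back, and Tbx15, a T-box gene of dorsal dermis, were each detected in 9 cells and were singled out after their values were seen. En1 was at the lowest value in cells 7 and 10, and also in cells 8 and 16, each of which had 2 Hox genes detected. Tbx15 was at 2.88 in cell 7 and 4.47 in cell 10.

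**Figure D4:**
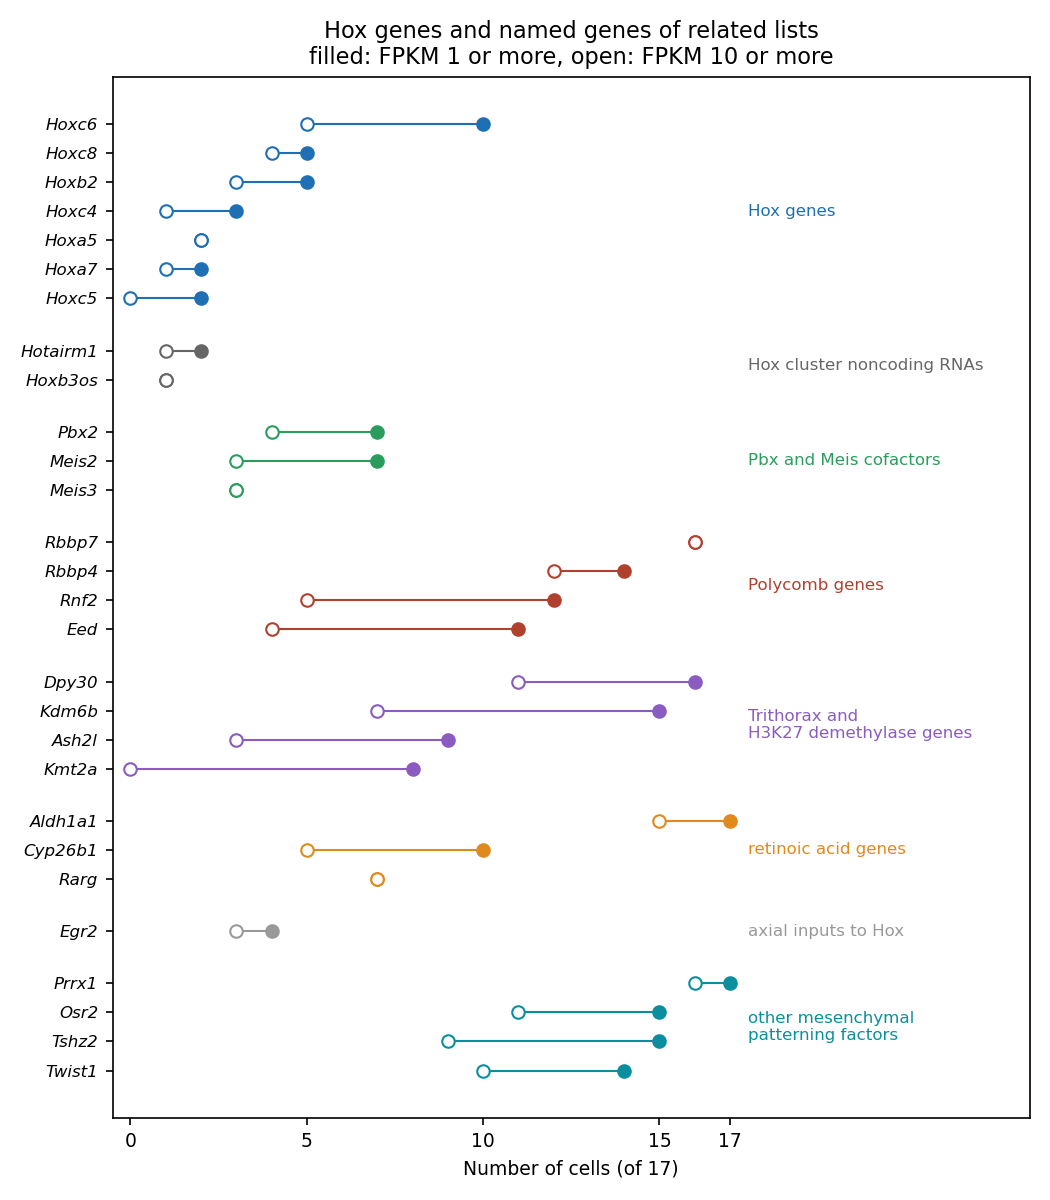
Number of cells of 17 (horizontal axis) with each gene at FPKM 1 or more (filled) and FPKM 10 or more (open, covering the filled point where the numbers are equal), for the 7 Hox genes and genes named from each related list. Aldh1a1 and Prrx1 reach 17 cells, while the highest Hox gene, Hoxc6, reaches 10.

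The genes whose values over the 17 cells were most like those of Hoxc6, Hoxc8 and Hoxb2, the Hox genes detected in at least 5 cells, were found by Pearson correlation among 6176 other genes detected in at least 5 cells. For Hoxc6 they were Evc (0.85), a ciliary protein of hedgehog signalling, and Gli3 (0.82), a transcription factor of the same pathway, then Mpp5 (0.77), Slc29a3 (0.77) and Sgpl1 (0.74). Evc was detected in 6 cells, each of which had Hoxc6, and stood at 4.68 in cell 12, 3.91 in cell 2 and 3.82 in cell 3. Gli3 was detected in 7 cells, of which 6 had Hoxc6, and was highest in cell 2 at 5.83. For Hoxc8 they were Gnaq (0.87), a G protein subunit, Tnmd (0.84), a membrane protein known from tendon, Igsf10 (0.80), Sgsm2 (0.79) and Foxo3 (0.78, Spearman 0.85), a forkhead transcription factor. Tnmd was at 9.22 in cell 1, 7.71 in cell 4, 6.73 in cell 5 and 5.32 in cell 13, which are 4 of the 5 cells with Hoxc8, and was not detected in cell 17, the fifth. It was also detected in cells 2 (2.06) and 3 (1.93), where Hoxc8 was not, so its 6 cells were cells 1 to 5 and cell 13. For Hoxb2 they were Polr3e (0.90), a subunit of RNA polymerase III, Nubp2 (0.89), Slc30a4 (0.84), Sugp1 (0.82) and Dhx16 (0.80), each highest in cell 11, the cell with the highest Hoxb2. All these genes were picked by correlation, so the cells they share with the Hox gene follow from that choice and are no separate result. With so many genes and 17 cells, high correlations rest on few cells. By Spearman correlation 3 of these 15 genes stayed among the 5 most alike, and with cells 1 to 5 left out 1 of 15 did.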

How the data were processed

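Libraries of 17 single cells were prepared with SMART-Seq v4 3′ DE, which reads transcripts from their 3′ end, and with Nextera XT, per the labels' protocols. TopHat2, Cufflinks and the build GRCm38 are named in the submitters' processing notes. No version or setting is given in the sources used here. The authors deposited FPKM values on a log scale, read here as log2(FPKM + 1). Neither the log base nor the constant is stated, so all FPKM thresholds depend on that reading. Back-transformed with base 2, the cells summed to between 592939 and 592955, whereas cell 1 would sum to 12675767 with base e. Sorted values above 3 differed by at most 0.0165 between cells, the form that quantile normalisation gives, so no depth per cell is left.

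Cells were grouped by title, and each table column was matched to the title with its number. Of 8446 rows 8431 (99.8%) matched GENCODE M21 on GRCm38, which gave coordinates and exonic lengths. Detection was FPKM 1 or more. Intervals are exact Clopper-Pearson 95% intervals. No test was run, since 1 group with no named animal is 1 sample. Named genes were the 7 Hox genes, the 4 most widely detected genes of each related list (a few of these, and some sequence, are not reported here), the 5 genes most correlated with each Hox gene detected in at least 5 cells, and rows within 20 kb of a Hox gene. The members and lists were chosen with earlier results of these data known. Alternatives covered which threshold, pseudocount, scaling, gene filter and correlation were used, multiplication by gene length, and leaving out sets of cells. The correlation ranking was run on shuffled rows into which near copies of a row were planted. That checks the calculation and not the correlations reported here. Computation used Python 3.11.15 with scipy 1.17.1, pandas 2.3.3 and numpy 2.4.6, and figures matplotlib 3.10.9.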

Additional observations from a re-analysis of the deposited data

How the results depend on the processing

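The detection threshold moved the counts most. Cells with a Hox gene, 15, numbered 17 when any value above the cell's lowest counted, 14 at FPKM 5 and 12 at FPKM 10. The median number of Hox genes per cell, 2, was 4 above the lowest value and 1 at FPKM 5 and at FPKM 10. Cells with 2 or more HoxC genes, 7, numbered 2 at FPKM 5, 1 at FPKM 10 and 15 above the lowest value. Genes of all lists, Hox genes included, detected in at least 9 cells numbered 23 of 70 (32.9%), against 46.9% of all rows. At FPKM 10 they numbered 11 (15.7%), against 26.6% of all rows. They numbered 15 at FPKM 5, 63 above the lowest value and 42 with values multiplied by length. The share over all rows was not computed for these last settings, so the lists cannot be compared with all rows there. The mean level of the 7 genes, 1.04 (SD over cells 0.56), was -1.14 with a pseudocount of 0.1, which puts undetected genes below 0, and 0.91 to 1.46 under the other settings. Of the 15 genes most like Hoxc6, Hoxc8 or Hoxb2, 3 stayed by Spearman correlation, 9 with genes detected in at least 1 cell, 7 without cells 15 to 17, 1 without cells 1 to 5, 12 with a pseudocount of 0.1 and 11 without cell 16. A Hox gene was detected in 10 of 12 cells without cells 1 to 5, 12 of 14 without cells 15 to 17 and 14 of 16 without cell 16. Each gene's mean without the cell where it was highest was computed as a setting chosen after the data were seen. No paired analysis was possible because all cells form 1 group. The cause was not tested where the setting itself does not show it. Read depth is unknown, so an undetected gene may be present below what these libraries could show.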
